A study of Mus musculus with 6 samples.

Results

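The YAP/TAZ pathway was examined through 10 genes in mouse podocytes (MPCs): the co-activators Yap1 and Wwtr1, their DNA-binding partner Tead1, the kinases Lats1 and Lats2, the target genes Ctgf, Cyr61, Ankrd1 and Amotl2, and the adaptor Ajuba. Their rows were found by symbol. Each of the 10 had 1 locus among the 24469 loci of the expression table, and all 10 were among the 10562 loci with a mean of at least 1 FPKM that were tested. FPKM is the number of sequenced fragments divided by exon length and by the mapped reads of the library. RNA-Seq covered 6 libraries in 3 groups of 2. All 6 came from a conditionally immortalized murine podocyte line, grown with interferon gamma and differentiated without it, and all 6 were exposed to high glucose (HG). The HG group had no FGF1. The rFGF1WT group was pretreated with recombinant wild-type FGF1 and the rFGF1ΔHBS group with a mutant FGF1 whose binding to heparan sulfate is weakened and whose mitogenic activity is reduced. The proteins were given at 100 ng/mL for 1 h after 12 h without serum, and glucose at 25 mM followed for 12 h. None of the 6 libraries was without high glucose, so the values concern FGF1 in HG and not HG itself.

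YAP (encoded by Yap1) and TAZ (encoded by Wwtr1) are transcriptional co-activators that bind TEAD factors and raise the transcription of genes for matricellular and cytoskeletal proteins. The Hippo kinases LATS1 and LATS2 phosphorylate them, which keeps them in the cytoplasm and marks them for degradation, so the activity of the pathway is set largely by protein phosphorylation and location. In podocytes YAP is known for a role in cell survival and in the response to the actin cytoskeleton and to stretch. Messenger RNA levels, which are all that was measured here, report on the targets and on the supply of each component, not on phosphorylation.

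TEAD factors recognise the letters GGAATG, read as CATTCC on the other strand. Windows of 250 bases upstream of the RefSeq transcription start (build GRCm38.p6) were found for 8 of the 10 genes, in 10 windows, and not for Ctgf and Tead1. The letters, searched on both strands, occurred in 7 of the 10 windows, against 12.6% of all 32851 such windows. These 7 windows belonged to 6 of the 8 genes, and the 2 windows of Wwtr1 share 1 match. Cyr61, which had the smallest adjusted p of the 10 genes against HG, is shown with its whole window (chr3:145649986-145650235, minus strand, 5′ to 3′), in which the capitals mark CATTCC, 103 to 98 bases before the start.
Cyr61: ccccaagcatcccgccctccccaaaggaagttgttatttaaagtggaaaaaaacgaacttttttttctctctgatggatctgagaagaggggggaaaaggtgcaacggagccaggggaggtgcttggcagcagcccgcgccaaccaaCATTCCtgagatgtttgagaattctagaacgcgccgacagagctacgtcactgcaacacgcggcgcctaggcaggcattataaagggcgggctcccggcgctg
For the other genes with the letters, 30 bases around each match are shown on the strand of the gene, again with the match in capitals. Both Ankrd1 stretches and that of Amotl2 lay within exons annotated in GENCODE M21 and the remaining stretches did not.
Ankrd1 (chr19:36120037-36120066, minus strand): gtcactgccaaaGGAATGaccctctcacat
Ankrd1 (chr19:36119950-36119979, minus strand): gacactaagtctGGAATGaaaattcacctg
Amotl2 (chr9:102717727-102717756, plus strand): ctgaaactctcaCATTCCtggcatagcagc
Ajuba (chr14:54577830-54577859, minus strand): cgttgatggataCATTCCacagtgcccctc
Ajuba (chr14:54577808-54577837, minus strand): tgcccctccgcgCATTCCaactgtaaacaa
Yap1 (chr9:8004720-8004749, minus strand): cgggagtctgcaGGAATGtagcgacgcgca
Wwtr1 (chr3:57576029-57576058, minus strand): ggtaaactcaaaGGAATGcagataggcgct
The matches lay 210 to 205 and 123 to 118 bases before the start in Ankrd1, 65 to 60 in Amotl2, 186 to 181 and 164 to 159 in Ajuba, and 141 to 136 in Yap1. The Wwtr1 match lay 136 to 131 bases before the start in the first of 2 windows that share it. The windows of Lats1 and Lats2 did not hold these letters. The CArG box bound by SRF, a factor that also regulates Cyr61, was in the windows of 0 members and in 1.47% of all windows. At so low a share, a count of 0 in 10 windows does not set the members apart from other genes. A match is a description of the letters and not a measured binding site.

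The deposited FPKM summed to between 179594 and 185168 per library, and the depth in reads is unknown. Pearson's r of log2(FPKM + 1) across tested loci, which are not independent replicates, was 0.916 to 0.923 between libraries of the same group 0.895 to 0.915 between HG and FGF1 libraries, and 0.915 to 0.924 between rFGF1WT and rFGF1ΔHBS libraries. Every HG library was thus less like each FGF1 library than the libraries of any group were like each other, while the FGF1 groups mixed. Of 12 podocyte markers, 6 were tested, led by Actn4 (mean 96.6 FPKM), Nes (68.7 FPKM) and Cd2ap (60.7 FPKM), while the lineage marker Wt1 and the slit diaphragm marker Nphs1 averaged 0.0376 and 0.781 FPKM. The summed FPKM of the podocyte list was 205.2 to 212.8 under HG, 263.8 to 280.7 with rFGF1WT and 269.7 to 274.1 with rFGF1ΔHBS. Most of this difference was in Nes, which rose by 0.89 and 0.97 on the log2 scale (limma adjusted p = 0.00576 and 0.00510). Synpo, for synaptopodin, lay in the opposite direction, at 9.58 and 10.2 FPKM under HG, 5.45 and 4.01 FPKM with rFGF1WT, and 4.84 and 6.83 FPKM with rFGF1ΔHBS, and did not pass (limma adjusted p = 0.0787 and 0.131). Podxl averaged 17.1, 15.6 and 15.3 FPKM in the same order and did not pass. The summed level of the 7 mesangial and fibroblast markers, mostly Pdgfrb, was 34.9 to 35.8, 28.8 to 29.6 and 28.5 to 29.9 FPKM with HG, rFGF1WT and rFGF1ΔHBS, and that of 6 tubule markers, mostly Aqp1 and Lrp2, was 61.6 to 73.3, 44.1 to 47.6 and 40.5 to 49.8 FPKM in the same order. Endothelial Pecam1 and Cdh5 averaged 0.0386 and 0.0454 FPKM, and the macrophage markers Ptprc and Adgre1 averaged 0.0275 and 0.00446 FPKM. The sum of the 6 endothelial markers was at most 3.54 FPKM in any library, and that of the 5 macrophage markers ran from 60.1 to 78.4 FPKM, mostly from a locus that joins Cd68 to Eif4a1. The part of these markers in the values of the 10 genes was not tested, and in RNA from whole cultures, fewer cells of a type and less RNA per cell cannot be told apart.

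Cyr61 and Ankrd1, which encode a secreted matricellular protein and a nuclear and sarcomeric ankyrin-repeat protein, rose more than 2-fold with either FGF1. Ctgf, which encodes the matricellular protein CTGF, had the highest fold change of the 10 genes but also spread between replicates and did not pass the test. Amotl2 and Wwtr1 had higher values in all 4 FGF1 libraries than in both HG libraries, by smaller margins that did not pass. Yap1, Tead1, Lats1, the locus of Lats2 and Ajuba overlapped between the HG libraries and those of at least 1 FGF1 group. No gene of the 10 passed the test between rFGF1ΔHBS and rFGF1WT.

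Differences were tested with limma on log2(FPKM + 1) in a fit of all 6 libraries, with p-values adjusted over all 10562 loci by the method of Benjamini and Hochberg, and a gene passed with an adjusted p under 0.05. Every fold change is on this scale, which understates changes of low values. For 2 libraries against 2, the smallest two-sided p of an exact permutation test is 0.333, so no such test was run on single genes. The labels do not say that replicates were separate cultures, so the p-values measure only the spread between these libraries. With rFGF1WT, 2 of the 10 genes were higher than under HG and 0 lower, where 3.26% of all tested loci were higher and 2.94% lower. With rFGF1ΔHBS the count was again 2 higher and 0 lower, against 3.37% and 2.89% of loci. Both were also past 2-fold, against 0.521% of loci that were higher by this limit with rFGF1WT and 0.454% with rFGF1ΔHBS. The median log2 fold change of the 10 genes was 0.25 with rFGF1WT and 0.20 with rFGF1ΔHBS, where that of all tested loci was -0.04 in each. Both comparisons share the HG libraries and are not independent of each other.

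**Figure D1:**
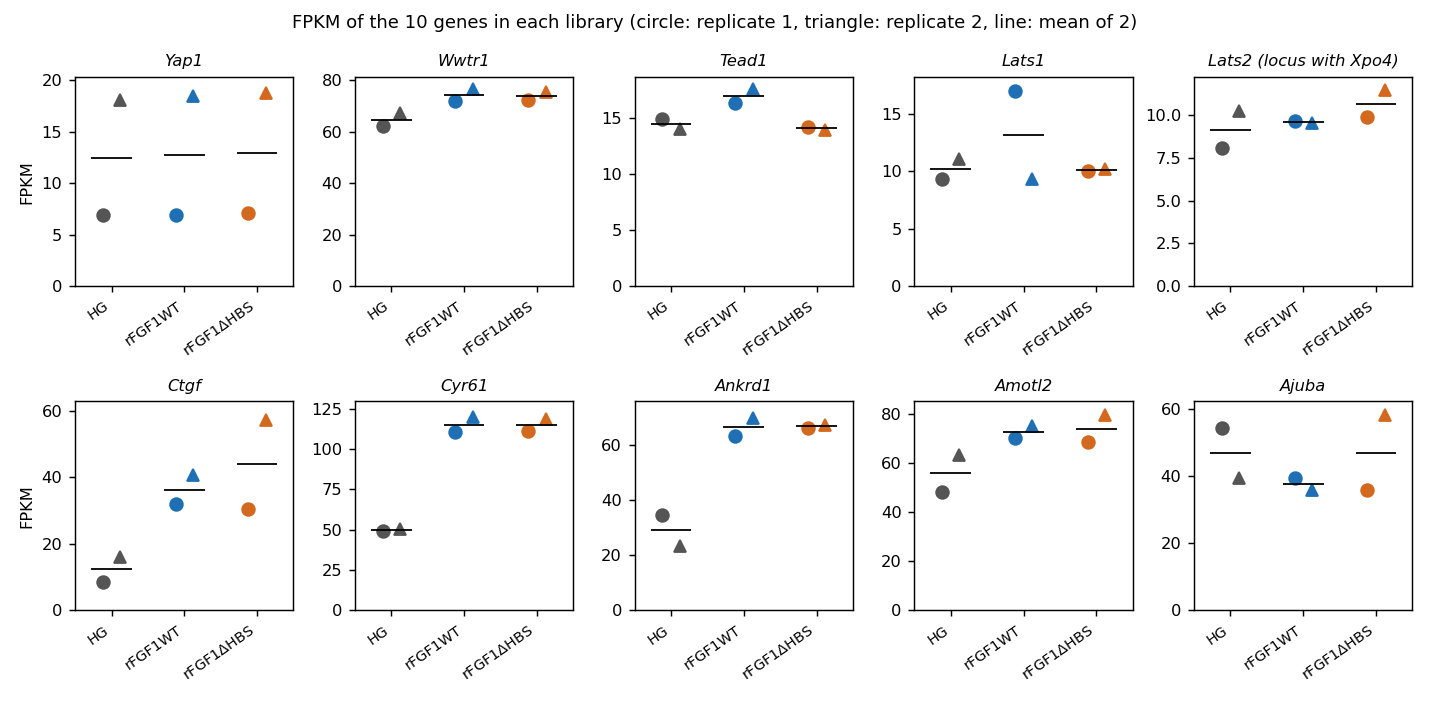
FPKM (vertical axes, each from 0) of the 10 genes in the 3 groups, with a circle for replicate 1, a triangle for replicate 2 and a line at the mean of the 2 libraries. Cyr61 and Ankrd1 show 4 FGF1 libraries far above both HG libraries, whereas Yap1 shows the same low and high value in each group.

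Yap1 (chr9:7931999-8004596 of GRCm38, minus strand) had 6.91 and 18.1 FPKM in HG replicates 1 and 2, 6.94 and 18.5 FPKM with rFGF1WT, and 7.12 and 18.8 FPKM with rFGF1ΔHBS. In each group the second library was the high one, by a ratio of 2.62 under HG, 2.66 with rFGF1WT and 2.64 with rFGF1ΔHBS, so the groups overlapped almost completely. The log2 fold change against HG was 0.02 (SE 0.75, limma adjusted p = 0.993) with rFGF1WT and 0.04 (limma adjusted p = 0.984) with rFGF1ΔHBS. The 95% confidence interval of the first, -2.01 to 2.04, is wide because of this spread. A difference of this kind, at least 2-fold between replicates and in the same direction in all 3 groups, was found at 69 of the 10562 tested loci (0.653%), and 18 of them were above 0 in all 6 libraries. The cause was not tested.

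Wwtr1 (chr3:57455649-57575910, minus strand) had 62.1 and 67.1 FPKM under HG, 71.9 and 76.6 FPKM with rFGF1WT, and 72.2 and 75.4 FPKM with rFGF1ΔHBS. All 4 FGF1 libraries lay above both HG libraries. The log2 fold change was 0.20 (SE 0.06, limma adjusted p = 0.164) with rFGF1WT and 0.19 (SE 0.06, limma adjusted p = 0.174) with rFGF1ΔHBS, and neither passed. TAZ mRNA was the more abundant of the co-activator mRNAs: the ratio of Wwtr1 to Yap1 FPKM ran from 3.71 to 10.4 over the 6 libraries, and its spread followed the replicate difference of Yap1.

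Tead1 (chr7:112679318-112906807, plus strand) had 14.9 and 14.0 FPKM under HG, 16.3 and 17.6 FPKM with rFGF1WT, and 14.2 and 13.9 FPKM with rFGF1ΔHBS. It was the one gene of the 10 whose rFGF1WT libraries stood above the other 4 while its rFGF1ΔHBS libraries lay at the HG level. Against HG, the log2 fold change was 0.21 (SE 0.07, limma adjusted p = 0.150) with rFGF1WT and -0.04 (SE 0.07, limma adjusted p = 0.779) with rFGF1ΔHBS. Directly between the proteins it was -0.25 (95% confidence interval -0.43 to -0.07), with a limma p of 0.0163 before and 0.747 after adjustment over all loci, so it did not pass.

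The LATS kinases showed no difference that passed. Lats1 (chr10:7681214-7716460, plus strand) had 9.34 and 11.1 FPKM under HG, 16.9 and 9.31 FPKM with rFGF1WT, and 10.0 and 10.2 FPKM with rFGF1ΔHBS. The first rFGF1WT library stood apart from the other 5, and without it the log2 fold change with rFGF1WT was -0.12 in place of 0.28 (SE 0.29, limma adjusted p = 0.588). The gene Lats2 (chr14:57689662-57758388, minus strand) was merged in the expression table into 1 locus with its neighbour Xpo4, which encodes an exportin. Of the 18 transcripts of this locus, 9 are of Lats2, so the value belongs to the pair of genes. The locus had 8.08 and 10.2 FPKM under HG, 9.63 and 9.51 FPKM with rFGF1WT, and 9.86 and 11.5 FPKM with rFGF1ΔHBS. Its rFGF1WT libraries lay between the HG libraries, and its log2 fold change was 0.07 (limma adjusted p = 0.791) with rFGF1WT and 0.21 (limma adjusted p = 0.416) with rFGF1ΔHBS.

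Of the target genes, Cyr61 (chr3:145646976-145649981, minus strand, named Ccn1 in GENCODE) had the highest level in the FGF1 libraries. It had 49.0 and 50.4 FPKM under HG, 110 and 120 FPKM with rFGF1WT, and 111 and 118 FPKM with rFGF1ΔHBS. The groups' means were 49.7 ± 0.981, 115 ± 6.49 and 115 ± 5.17 FPKM (SD, n = 2 each), and all 4 FGF1 libraries were more than 2-fold above either HG library. Cyr61 rose by 1.19 on the log2 scale with rFGF1WT (SE 0.06, limma adjusted p = 0.00661) and by 1.19 with rFGF1ΔHBS (SE 0.06, limma adjusted p = 0.00764). The mean FPKM with these proteins was 2.315 and 2.305 times the HG mean. The call held when each of the 6 libraries was left out in turn, with limma adjusted p of 0.0224 to 0.0475 and 0.0279 to 0.0469.

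Ankrd1 (chr19:36111961-36120099, minus strand) had 34.8 and 23.5 FPKM under HG, 63.5 and 69.9 FPKM with rFGF1WT, and 66.4 and 67.5 FPKM with rFGF1ΔHBS. The FGF1 libraries were close to each other and well above both HG libraries, which differed among themselves more than the FGF1 libraries did. Ankrd1 rose by 1.19 (SE 0.20, limma adjusted p = 0.0479) with rFGF1WT and by 1.20 (SE 0.20, limma adjusted p = 0.0473) with rFGF1ΔHBS, or 2.29 and 2.30 times the HG mean. These calls lay at the threshold: the adjusted p was under 0.05 in 4 of 8 alternative analyses for each protein, the replicate block apart, and ran from 0.0416 to 0.106 with rFGF1WT and from 0.0407 to 0.101 with rFGF1ΔHBS. Leaving out any library other than HG replicate 1 took it past 0.05, up to 0.164 without rFGF1WT replicate 2 and 0.159 without rFGF1ΔHBS replicate 1, while the fold change remained between 0.92 and 1.47. With the FGF1 groups pooled, the log2 fold change was 1.19 (limma adjusted p = 0.0274), and the adjusted p stayed under 0.05 in 2 of the 6 fits that left out a library, with a highest value of 0.0809 without rFGF1WT replicate 2.

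Ctgf (chr10:24595442-24598683, plus strand, named Ccn2 in GENCODE) had 8.68 and 15.9 FPKM under HG, 31.9 and 40.6 FPKM with rFGF1WT, and 30.3 and 57.3 FPKM with rFGF1ΔHBS. The lowest FGF1 library was above the higher HG library, but the replicates differed by a ratio of 1.84 under HG and 1.89 with rFGF1ΔHBS. The log2 fold change was 1.53 (SE 0.43, limma adjusted p = 0.126) with rFGF1WT and 1.74 (SE 0.43, limma adjusted p = 0.0980) with rFGF1ΔHBS, and the means were 2.94 and 3.56 times that of HG. With the FGF1 groups pooled it was 1.63 (95% confidence interval 0.64 to 2.63, limma adjusted p = 0.0691). Per length, Cyr61 mRNA exceeded that of its paralog Ctgf in every library, by a ratio of 2.06 to 5.65.

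Amotl2 (chr9:102716672-102733418, plus strand), a target that encodes an angiomotin-like protein able to hold YAP at cell junctions, had 48.2 and 63.5 FPKM under HG, 70.4 and 75.3 FPKM with rFGF1WT, and 68.6 and 79.6 FPKM with rFGF1ΔHBS. The HG libraries did not overlap those of either FGF1 group, which overlapped each other, yet the HG libraries were farther from each other than the higher of them was from the lowest FGF1 library. The log2 fold change was 0.39 (SE 0.16, limma adjusted p = 0.232) with rFGF1WT and 0.41 (SE 0.16, limma adjusted p = 0.213) with rFGF1ΔHBS. Ajuba (chr14:54567472-54577558, minus strand), which encodes a LIM-domain protein that restrains LATS kinases, had 54.3 and 39.4 FPKM under HG, 39.5 and 35.9 FPKM with rFGF1WT, and 35.9 and 58.2 FPKM with rFGF1ΔHBS. Its highest values were those of the first HG and the second rFGF1ΔHBS library, and all groups overlapped. Its log2 fold change was -0.29 (SE 0.28, limma adjusted p = 0.576) with rFGF1WT and -0.02 (limma adjusted p = 0.984) with rFGF1ΔHBS.

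In the HG libraries Wwtr1 had the highest mean level of the 10 genes (64.6 ± 3.50 FPKM), followed by Amotl2 (55.9 ± 10.8 FPKM), Cyr61 (49.7 ± 0.981 FPKM) and Ajuba (46.8 ± 10.5 FPKM), each SD with n = 2. Neighbours in this order overlapped. Ankrd1 (29.1 ± 7.98 FPKM) stood below these 4 and above the other 5, without overlap on either side. Tead1, Yap1, Ctgf, Lats1 and the locus of Lats2 followed between 14.5 and 9.15 FPKM, with overlap between each and the next. With either FGF1, Cyr61 took the first place, above Wwtr1 and Amotl2 in every FGF1 library.

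**Figure D2:**
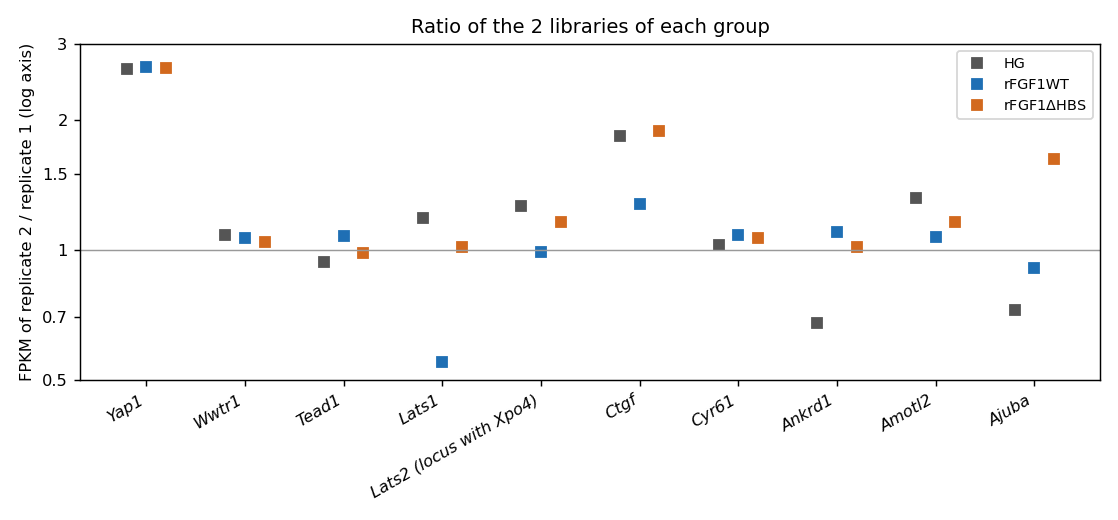
FPKM of replicate 2 divided by that of replicate 1 (vertical log axis) for the 10 genes, with a square for each group of 2 libraries. The squares of Cyr61, Wwtr1 and Tead1 lie near 1, those of Yap1 lie together between 2.62 and 2.66, and that of Lats1 with rFGF1WT lies at 0.550.

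Counted by the libraries alone, 6 of the 10 genes had both rFGF1WT libraries above both HG libraries (Wwtr1, Tead1, Ctgf, Cyr61, Ankrd1 and Amotl2), where 24.1% of all tested loci did. With rFGF1ΔHBS, 5 genes did, the same without Tead1, where 24.4% of loci did. All 4 FGF1 libraries were above both HG libraries in these 5 genes and in 17.1% of loci, and 0 of the 10 genes had both rFGF1WT libraries or both rFGF1ΔHBS libraries below HG, where 34.1% and 32.9% of loci did.

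The mutant and the wild-type protein were given at the same dose and time, and 10 differences between them were examined. 0 of the 10 genes passed (limma, adjusted over all loci), where 0.549% of all tested loci passed in either direction. Before adjustment, 1 of the 10 genes, Tead1, had a limma p under 0.05, where 514 of the 10562 tested loci did. The rFGF1ΔHBS and rFGF1WT libraries did not overlap for 2 genes, Tead1 and the locus of Lats2, where this held for 34.5% of loci. The log2 difference, rFGF1ΔHBS minus rFGF1WT, was -0.01 for Cyr61 (95% confidence interval -0.18 to 0.16) and -0.01 for Wwtr1 (-0.18 to 0.16). It was 0.01 for Ankrd1 (95% confidence interval -0.52 to 0.53) and 0.02 for Amotl2 (-0.40 to 0.45). The interval was wider for Ctgf, at 0.21 (-0.94 to 1.36), Lats1, at -0.29 (-1.06 to 0.48), Ajuba, at 0.27 (-0.49 to 1.03), and Yap1, at 0.03 with an SE of 0.75. For the locus of Lats2 it was 0.14 (-0.22 to 0.50). A p that misses the threshold does not show that the proteins act alike. The intervals of Cyr61, Wwtr1 and Tead1 were the narrowest.

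**Figure D3:**
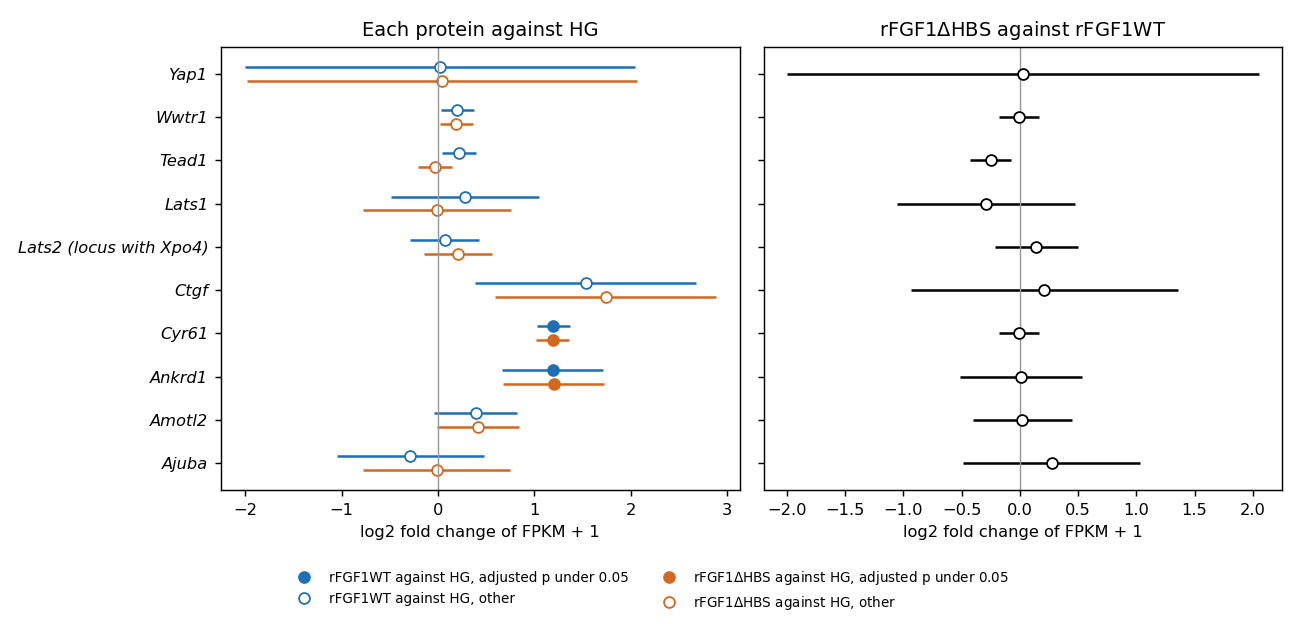
Log2 fold change of FPKM + 1 (horizontal axes) of the 10 genes, for each protein against HG (left) and for rFGF1ΔHBS against rFGF1WT (right), with bars for the 95% confidence interval of the limma fit and filled points for an adjusted p under 0.05. The filled points are Cyr61 and Ankrd1, and the bars of the right panel cover 0 for every gene except Tead1.

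Among the other Hippo regulators and YAP/TAZ targets, the genes that passed did so at fold changes below those of Cyr61 and Ankrd1. Of all tested loci, 3.26% were higher and 2.94% lower with rFGF1WT, and 3.37% and 2.89% with rFGF1ΔHBS. Of 25 genes for the Hippo kinase cassette and its regulators, 24 were tested, and 1 was higher and 0 lower with each protein. This was Frmd6, which encodes a FERM-domain activator of the cassette. It had 16.4 and 15.7 FPKM under HG, 24.4 and 24.8 FPKM with rFGF1WT, and 25.4 and 26.0 FPKM with rFGF1ΔHBS. Frmd6 rose by 0.58 (limma adjusted p = 0.0159) and 0.65 (limma adjusted p = 0.0143). Mob1b, which encodes an activating subunit of LATS, passed only with the FGF1 groups pooled, at 0.48 (limma adjusted p = 0.0492), where 4.93% of loci were higher and 5.14% lower. Without the filter on low FPKM, 1 gene of the list passed with the groups pooled. The list's median was 0.04 with rFGF1WT and 0.12 with rFGF1ΔHBS. Amotl1, a paralog of Amotl2 singled out after its values were seen, had the highest fold change of this list. It had 6.88 and 14.9 FPKM under HG, 24.3 and 24.4 FPKM with rFGF1WT, and 24.1 and 25.8 FPKM with rFGF1ΔHBS. The FGF1 libraries were close together and the HG libraries were not, and the log2 fold change of 1.18 and 1.21 did not pass (SE 0.35, limma adjusted p = 0.139 and 0.129).

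Of 17 further YAP/TAZ target genes, 13 were tested. With each protein 3 were higher and 1 was lower. Of all tested loci, 3.26% were higher and 2.94% lower with rFGF1WT, and 3.37% and 2.89% with rFGF1ΔHBS. The list's median was 0.26 with rFGF1WT and 0.11 with rFGF1ΔHBS. Those that rose were Myof, for the membrane repair protein myoferlin, by 0.33 and 0.42 (limma adjusted p = 0.0380 and 0.0248), Gadd45a, for a stress-induced growth arrest protein, by 0.49 and 0.57 (limma adjusted p = 0.0461 and 0.0345), and Arhgef17, for a guanine nucleotide exchange factor, by 0.44 and 0.49 (limma adjusted p = 0.0458 and 0.0371). The Arhgef17 locus also carries the microRNA gene Mir3102. The gene that fell was Ptpn14, which encodes a phosphatase that restrains YAP, from 50.9 and 51.0 FPKM under HG to 37.4 and 38.6 FPKM with rFGF1WT and 40.9 and 41.2 FPKM with rFGF1ΔHBS. Its log2 fold change was -0.41 (limma adjusted p = 0.0206) and -0.31 (limma adjusted p = 0.0353). Without the filter on low FPKM, the list held 1 gene past the threshold with rFGF1WT and 0 with rFGF1ΔHBS.

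Before adjustment, 2616 of the 10562 tested loci had a limma p under 0.05 with rFGF1WT and 2632 with rFGF1ΔHBS. Of 7 other TEAD factors and Vgll cofactors, 5 were tested and 0 passed with either protein (limma, 2 with a p under 0.05 before adjustment in each). The median was -0.29 with rFGF1WT and -0.31 with rFGF1ΔHBS. Tead3 was lower with the FGF1 groups pooled, at -0.30 (limma adjusted p = 0.0466), having 5.77 and 5.67 FPKM under HG and 4.30 to 4.59 FPKM in the FGF1 libraries. It was not called under median-ratio scaling or without the filter. Of the other CCN genes, the family of Cyr61 and Ctgf, 2 of 4 were tested and 0 passed in any comparison (limma, 1 with a p under 0.05 before adjustment with each protein). Wisp1 had 17.3 and 18.7 FPKM under HG and 17.0 to 20.4 FPKM with FGF1, and Wisp2 had 4.28 and 3.62 FPKM under HG and 2.61 to 2.97 FPKM with FGF1.

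The last lists cover other routes to the same targets, since Cyr61 and Ctgf are also known to respond to SRF, TGF-beta and growth factor signalling. Over all tested loci, 3.26% were higher with rFGF1WT and 3.37% with rFGF1ΔHBS. Of 13 SRF/MRTF genes, 10 were tested and 2 were higher with each protein. These were Vcl, for the adhesion protein vinculin, by 0.87 and 0.96 (limma adjusted p = 0.00661 and 0.00583), and Fhl2, for a LIM-domain cofactor, by 0.59 and 0.58 (limma adjusted p = 0.0186 and 0.0201). Their median was 0.38 and 0.28. Of 7 TGF-beta response genes, 5 were tested, and the median was 0.61 and 0.44. Of 12 ERK response genes downstream of FGF receptors, all 12 were tested. With rFGF1WT 7 were higher and with rFGF1ΔHBS 6, against the same 3.26% and 3.37% of loci, and the median was 1.24 and 1.32. Which of these routes had a part in Cyr61 and Ankrd1 was not tested. In the comparison of the mutant with the wild-type protein, 0 genes of the lists other than the 10 genes passed (limma). Before adjustment, 1 gene, in the Hippo regulators, had a limma p under 0.05, where 514 of the 10562 tested loci did.

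**Figure D4:**
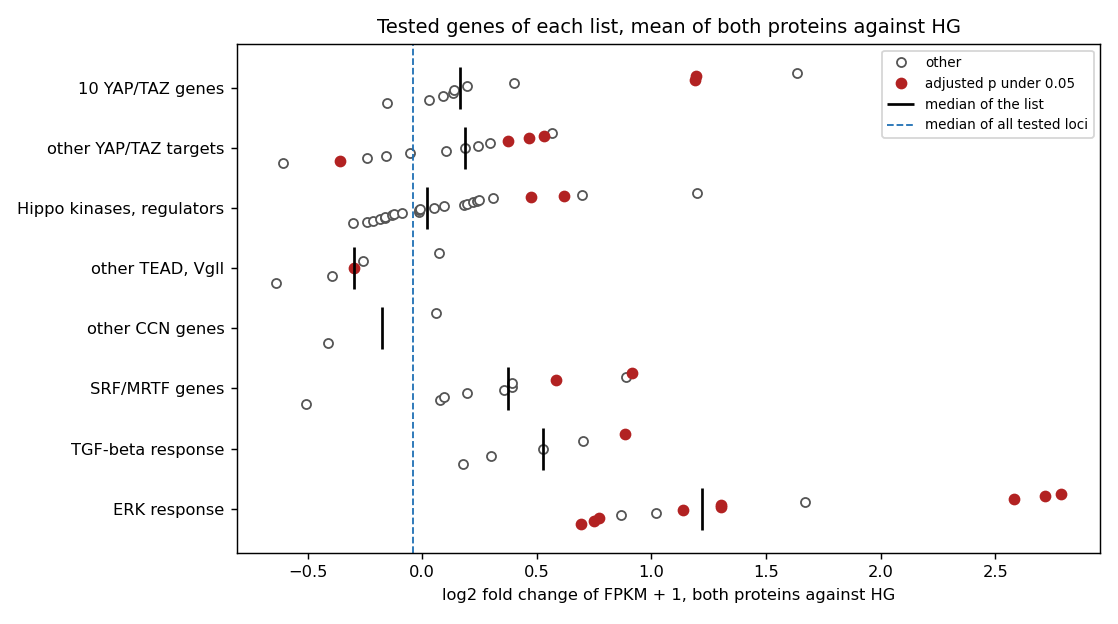
Log2 fold change of FPKM + 1 (horizontal axis) of the tested genes of each list with the FGF1 groups pooled against HG, with filled points for an adjusted p under 0.05, a bar at the median of the list and a dashed line at the median of all tested loci (-0.04). The 2 filled points of the 10 YAP/TAZ genes lie to the right of every other point that passed outside the ERK response genes.

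The deposited annotation also assigns 147 loci to the KEGG Hippo signaling pathway, a list used after its values were seen, and 7 of the 10 genes are in it. Of the other 140, 99 were tested. With rFGF1WT 8 were higher and 4 lower, where 3.26% and 2.94% of all tested loci were. With rFGF1ΔHBS 6 were higher and 4 lower, where 3.37% and 2.89% of all tested loci were. Between the proteins 0 passed (limma). Before adjustment 3 had a limma p under 0.05 between the proteins, where 514 of the 10562 tested loci did. The largest increases among the genes that passed were those of the cyclin genes Ccnd1, by 2.70 and 2.73 (limma adjusted p = 0.00145 and 0.00161), and Ccnd2, by 1.56 and 1.59 (limma adjusted p = 0.00345 and 0.00392). The BMP receptor gene Bmpr1a had the largest decrease among the genes that passed, at -1.14 and -1.15 (limma adjusted p = 0.00776 and 0.00881). The median of the 99 genes was -0.04 and 0.01, near that of all tested loci.

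Across the 6 libraries, the loci most like each gene were found by Pearson's r of log2(FPKM + 1) among 6829 loci with a mean of at least 5 FPKM and no library at 0, as a description, since the libraries share groups. For Cyr61 they were Gm12715 (r = 0.999) and the locus of Mical2 (r = 0.999), and 5.59% of loci reached an r of 0.95, the highest share of the 10 genes. For Ankrd1 they were Cyfip1 (r = 0.997) and Akap1 (r = 0.995), with 3.03% of loci, and for Ctgf C3 (r = 0.993) and Socs3 (r = 0.991), with 1.13%. Wwtr1 was most like C3 (r = 0.986) and Sh2b3 (r = 0.985), and Amotl2 most like Lsg1 (r = 0.992) and Sh2b3 (r = 0.991). Yap1 was most like Vapb (r = 1.00), which had 4.09 and 11.3 FPKM under HG, 4.23 and 11.4 FPKM with rFGF1WT, and 4.15 and 11.8 FPKM with rFGF1ΔHBS. Vapb therefore had the same low first and high second library in every group. Ajuba was most like Pttg1ip (r = 0.991), with 63.4 and 19.0 FPKM under HG, 23.0 and 15.7 FPKM with rFGF1WT, and 15.7 and 63.8 FPKM with rFGF1ΔHBS. Lats1 was most like Jpt1 (r = 0.976), which had 61.3 FPKM in the first rFGF1WT library and 16.9 to 19.1 FPKM in the other 5. Jpt1 and Lats1 thus shared the first rFGF1WT library as their highest.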

How the data were processed

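MPCs were profiled by RNA-Seq in 6 libraries, 2 per group, and each library was assigned by its labels and column name. The authors made poly(A) libraries, sequenced both ends of each fragment and deposited a table of FPKM, which their methods say was summarized with edgeR. The submitters' processing notes name HISAT2 2.0, StringTie 1.3.0, Bowtie 0.12.2 and the build mm8, without saying what each was used for. Loci were matched by symbol, and positions came from GENCODE M21 (GRCm38) through their Ensembl transcripts, not from mm8. Fragments shared by paralogs or merged loci cannot be divided here, and whether strand was used is not given in the sources used here.

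Loci averaging 1 FPKM or more entered a linear model of log2(FPKM + 1), run in limma 3.58.1 under R 4.3.3 (eBayes with a trend, 3 residual degrees of freedom). Tables, promoter searches and plots were made with Python 3.11.15, pandas 2.3.3 and matplotlib 3.10.9, and the fit was tested on simulated data. The 10 genes, the pathway lists and the marker lists were chosen with earlier results of these data known. Named genes were the 10, genes of the lists with an adjusted p under 0.05 or else the 2 with the highest mean, and the 2 loci most like each gene. Of the KEGG pathway and the ERK list, examples or counts only are given. Alternatives were a pseudocount of 0.1, quantile normalization, median-ratio scaling, no filter, a filter at 5 FPKM, loci with no library at 0, robust eBayes, only the libraries compared, a replicate block and leaving out each library. The results of some listed genes are not reported here, and real-time PCR, protein and mouse data are not analysed here.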

Additional observations from a re-analysis of the deposited data

How the results depend on the processing

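Of the 2 genes past the threshold against HG, Cyr61 kept its call in 8 of 8 alternatives with each protein and in all 6 fits that left out a library. The count of the 10 genes that passed dropped to 1, Cyr61, with each protein without the filter, under quantile normalization, under robust eBayes, with only the libraries compared and with the replicate block, and to 1 for the FGF1 groups pooled without the filter. Leaving out each library gave counts of 1 to 2 in all 3 comparisons with HG and 0 between the proteins. Deviations of equally numbered libraries from their group means correlated at -0.02 (HG and rFGF1WT), 0.10 (HG and rFGF1ΔHBS) and -0.05 (between the proteins). These correlations are over all tested loci and do not settle whether libraries were paired, since single loci such as Yap1 shared a replicate difference. With the replicate block, the number of genes that passed was 1 with each protein, 2 with the groups pooled and 0 between the proteins, Ankrd1 had an adjusted p of 0.117 and 0.113 (limma) and 0.0759 with the groups pooled, where Cyr61 and Ctgf (0.0482) passed, and higher loci fell from 344 to 26 with rFGF1WT and from 356 to 25 with rFGF1ΔHBS. Higher loci were 217 and 214 without the filter and 91 and 102 with only the libraries compared.

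Some differences that never passed changed sign, while others, such as those of Ctgf, Amotl2 and Wwtr1 with each protein against HG, did not. Under median-ratio scaling, rFGF1ΔHBS against HG gave 0.023 for Lats1 and 0.018 for Ajuba, and the proteins differed by -9.65e-05 for Ankrd1. Quantile normalization gave Lats1 0.035. Over the fits that left out a library, rFGF1WT against HG ran from -0.63 to 0.66 for Yap1, from -0.12 to 0.68 for Lats1 and from -0.085 to 0.22 for Lats2. With rFGF1ΔHBS the range was -0.60 to 0.68 for Yap1, -0.081 to 0.0086 for Tead1, -0.12 to 0.10 for Lats1 and -0.36 to 0.32 for Ajuba. With the groups pooled it was -0.61 to 0.67 for Yap1, -0.064 to 0.34 for Lats1, -0.016 to 0.29 for Lats2 and -0.38 to 0.073 for Ajuba. Between the proteins it was -0.62 to 0.67 for Yap1, -0.054 to 0.035 for Wwtr1, -0.69 to 0.11 for Lats1, -0.24 to 0.66 for Ctgf, -0.063 to 0.051 for Cyr61, -0.063 to 0.075 for Ankrd1, -0.084 to 0.13 for Amotl2 and -0.069 to 0.61 for Ajuba. In those fits an arm of 1 library was assumed to vary like the other groups. Summing the loci of a symbol was not run as a separate fit, since each gene had 1 locus. The cause of the changes was not tested, and the depth behind each FPKM is unknown.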
